A study of Arabidopsis thaliana with 13 samples.

Results

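The less conserved miRNA loci with family numbers 401 to 999 were examined in the floral induction system of Arabidopsis. They are the loci of the deposited RPM table whose family number falls in that range, without 14 loci of the range that the rule leaves out by name (among them MIR403, MIR408, MIR824 and MIR827). 81 of the 325 miRNA loci in the table met this rule, 132 further loci carry family numbers of 1000 and above, and 112 make up the rest. The members were chosen by name, and the list of loci left out was drawn up with earlier results of these data known. Small RNA was sequenced from Landsberg plants that carry *pAP1::AP1-GR* and the *ap1* and *cal* mutations, in which dexamethasone (DEX) brings the AP1-GR fusion protein into the nucleus and many flowers start to develop together. All groups share this genotype, the seedlings and the day 0 controls included. The groups are untreated seedlings at the vegetative stage (n = 3), untreated day 0 inflorescences (n = 2), and inflorescences under DEX treatment for 2 days (n = 3), 4 days (n = 2) or 8 days (n = 3). Since *ap1 cal* inflorescences without induction are masses of meristems, they stand for neither a wild-type shoot apex nor a wild-type flower.

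In plants, a miRNA is cut from a folded precursor by DICER-LIKE 1, loaded into an ARGONAUTE protein and directs the cleavage or repression of mRNAs that match it along nearly its whole length. Conserved families are shared among flowering plants and include many regulators of development. The loci described here are mostly known from Arabidopsis and its close relatives. Such young loci are typically weakly expressed, and for many of them no target with a clear role is known.

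The mature sequences of the loci on which the results turn are shown here, taken from the RefSeq annotation of TAIR10.1. They are written 5′ to 3′ with the seed, bases 2 to 8, in capitals. The first 3 sequences belong to the most abundant loci.
miR775: uUCGAUGUcuagcagugcca
miR779.1: uUCUGCUAuguugcugcucau
miR779.2: uGAUUGGAaauuucguugacu
The next ones are products of loci with targets among DNA methylation genes, and miR773a differs from miR773b-3p by C5A, counted from the 5′ end of miR773a, which falls in the seed.
miR773a: uUUGCUUCcagcuuuugucuc
miR773b-3p: uUUGAUUCcagcuuuugucuc
miR823: uGGGUGGUgaucauauaagau
The seed of miR472-3p, which targets immune receptor mRNAs, is also the seed of miR865-3p, and the sequences part after it.
miR472-3p: uUUUUCCUacuccgcccauacc
miR865-3p: uUUUUCCUcaaauuuauccaa
The loci of the next sequences changed between stages.
miR825: uUCUCAAGaaggugcaugaac
miR844-5p: uGGUAAGAuugcuuauaagcu
miR844-3p: uUAUAAGCcaucuuacuaguu
miR848: uGACAUGGgacugccuaagcua
miR861-3p: gAUGGAUAugucuucaaggac
miR781b: uUAGAGUUuucuggauacuua
Values below are per locus, so they do not separate the sequences of a locus that has several.

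All 81 loci were found in the annotation, with 109 mature sequences. Of these sequences, 83 have 21 bases, 17 have 22, 6 have 24 and 3 have 20. 70 begin with U, 22 with A, 9 with G and 8 with C. Of the 109 sequences, miR835-3p is the one that shares its seed (GGAGAAG) with a conserved family in this table, that of MIR164a, MIR164b and MIR164c. The other shared seeds join loci of the range with each other (MIR841a and MIR841b, MIR833a and MIR833b, the 3 MIR405 and the 3 MIR447 loci, the 5 MIR854 loci), except that miR774b-5p shares its seed with miR1886.2. A read that fits several places in the genome is not counted for any gene by STAR's gene counts, the count behind the RPM values. This touches 15 of the 81 loci, which have no mature sequence found at 1 place. Among them are MIR854a to MIR854e, whose mature sequence is found at 12 places, MIR855 (45 places), MIR405a, MIR405b, MIR405d and MIR416 (4 places each), and MIR414, MIR447a, MIR447b, MIR781a and MIR781b (2 places each). A low value of such a locus is therefore not a measure of its mature miRNA.

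52 of the 81 loci were above 0 in at least 1 library, and 29 were listed at 0 in all 13. Of the 52, 24 were above 0 in seedlings as well as inflorescences, 28 were above 0 in inflorescences and at 0 in seedlings, and 0 were above 0 in seedlings alone. Detection was thin for many. 12 loci had 1 read in all, 18 had 1 to 3 reads, and the 52 loci together had 4890 reads, of which 184 came from seedlings. 14 loci were above 0 in all 10 inflorescence libraries, and 4 (MIR775, MIR779, MIR840 and MIR865) were above 0 in all 13.

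Seedling libraries were shallower, and the counts of detected loci go with that. From the RPM steps, inflorescence libraries had about 926300 to 2142752 mapped reads and seedling libraries 148673 to 366691. In single inflorescence libraries 23 to 32 of the 81 loci were above 0, against 12 to 18 in seedlings. A count of 0 allows up to 3 reads, which amounts to 1.40 to 3.24 RPM among inflorescence libraries and 8.18 to 20.2 RPM among those of seedlings, for counting error only. Over the 3 seedling libraries together the limit is 3.76 RPM. 12 loci had an inflorescence mean of at least that level. 11 of these were also above 0 in seedlings, and MIR860 was at 0 in all 3 seedling libraries. For the other 27 loci at 0 in seedlings, the depth cannot show whether they were lower there.

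**Figure D1:**
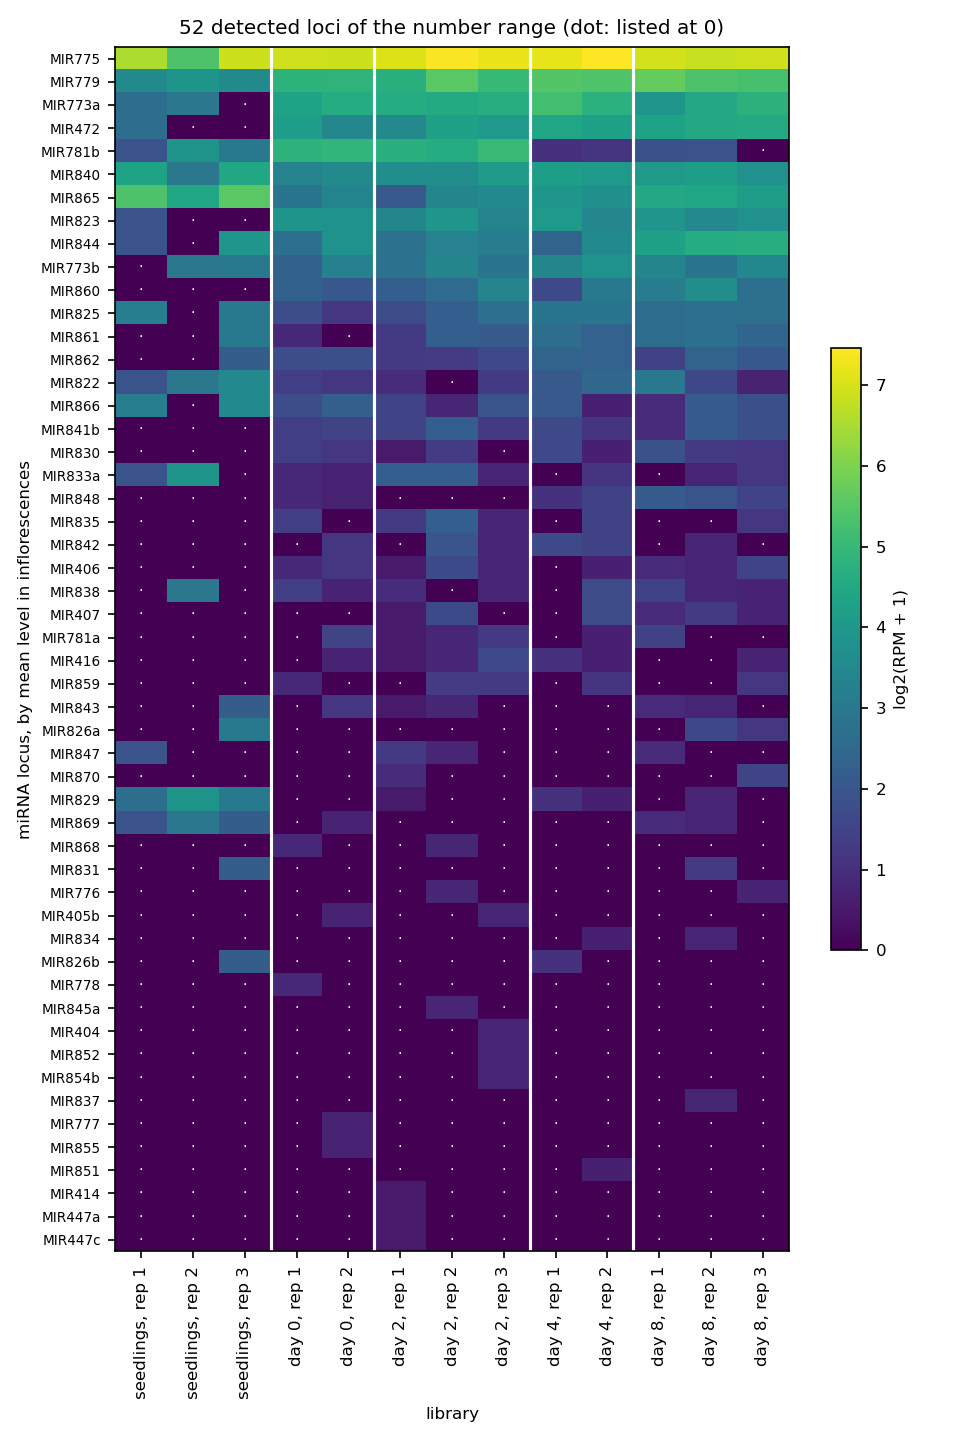
Level of the 52 detected loci (rows, ordered by their mean in inflorescences) in the 13 libraries (columns), as log2(RPM + 1), with a dot where a locus is listed at 0. MIR775 is bright in every library, MIR781b is dark from day 4 on, and the lowest rows hold 1 read or a few.

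Among the loci at 0 in every library, MIR402 (DNA demethylase *DML3*), MIR846 (jacalin lectins), MIR447b, MIR845b and MIR841a belong to lists with a described role or to a named pair. 22 of the 29 undetected loci have a mature sequence found at 1 place in the genome, as do 44 of the 52 detected ones. 7 of the 29 undetected and 18 of the 52 detected loci overlap a protein-coding gene, 5 and 16 of them on its strand. For comparison, 80 of the 132 loci numbered 1000 and above and 84 of the 112 remaining loci were above 0 in any library.

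The 81 loci together made up about 1% of the RPM of all miRNA loci. Their summed level was 273 and 289 RPM on day 0. It was 283, 376 and 340.0 RPM on day 2. It was 340.1 and 368 RPM on day 4, and 329, 330.1 and 322 RPM on day 8. Seedlings gave 215, 155 and 291 RPM. The day 0 and day 8 libraries did not overlap, day 2 overlapped day 0 and spanned day 8, and the highest seedling library lay above both day 0 libraries. As a share of all miRNA RPM the range was 0.940 to 1.33% in inflorescences and 0.925 to 1.28% in seedlings. In bulk tissue, fewer cells of a type and less RNA per cell cannot be told apart, which holds for every level given here.

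**Figure D2:**
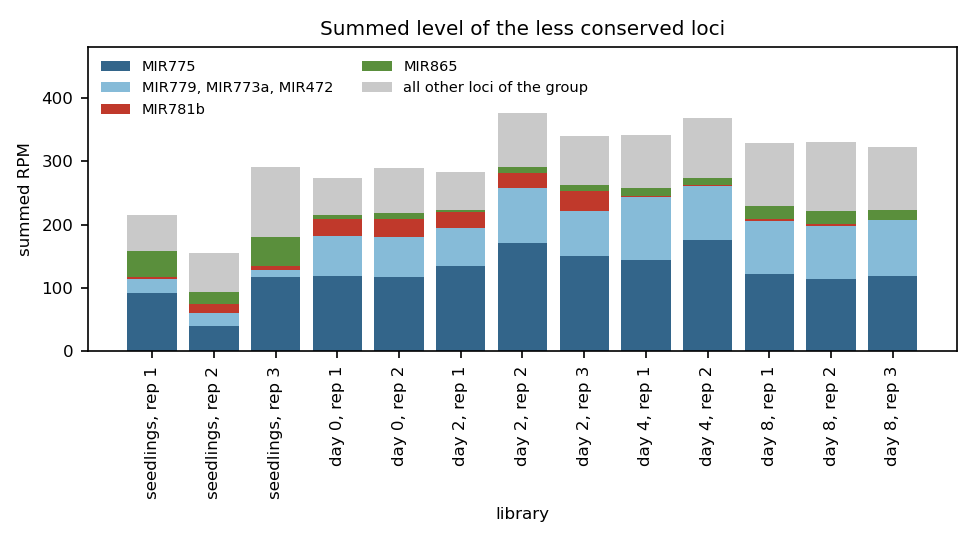
Summed RPM of the 81 loci in each library, with MIR775, the group of MIR779, MIR773a and MIR472, MIR781b, MIR865 and all other loci stacked. Inflorescence libraries sum to 273 to 376 RPM and seedling libraries to 155 to 291 RPM.

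A few loci carried most of this level. MIR775 alone gave 42.0% of the summed inflorescence mean, the 5 highest loci 70.5% and the 12 highest 91.9%. 9 loci had an inflorescence mean of at least 10 RPM, 12 lay between 1 and 10 RPM, and 31 were detected with a mean under 1 RPM. miR775 targets a gene of a galactosyltransferase and its locus lies at chr1:29422452-29422574 on the plus strand, outside protein-coding genes. Its levels were 119 and 118 RPM on day 0, 134, 170.5 and 150.2 RPM on day 2, 144 and 175 RPM on day 4 and 122, 114 and 119 RPM on day 8. The day 2 and day 4 libraries all lay above the day 0 and day 8 libraries. None of the stage comparisons passed the test for MIR775 (limma, adjusted p = 0.19 for day 8 against day 4, log2 difference -0.42, SE 0.20), and its direction depended on the scaling. Day 8 against day 2 was -0.35, was called lower after median-ratio scaling and was called higher in the quantile-normalized values of the authors.

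MIR779 was the locus with the next highest level. Its mean was 27.7 ± 0.670 RPM on day 0 (SD, n = 2), 34.1 ± 10.3 on day 2 (n = 3), 42.1 ± 1.46 on day 4 (n = 2) and 43.1 ± 6.76 on day 8 (n = 3). The day 8 libraries (50.8, 40.5 and 38.1 RPM) lay above those of day 0 (27.2 and 28.1 RPM), and the log2 difference of 0.61 (SE 0.27) did not pass the test (limma, adjusted p = 0.1). MIR840, whose precursor lies at chr2:771337-771562 in a UTR exon of the pentatricopeptide repeat gene AT2G02750 on the same strand, ranged from 8.80 to 17.3 RPM over the 10 inflorescence libraries with a median of 14.0. Its seedling libraries (19.1, 6.73 and 21.3 RPM) spanned that range. MIR773b, at 4.00 to 12.9 RPM, was above 0 in all 10 inflorescence libraries and passed no comparison.

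Between stages, most tested loci of the range did not pass the test. Each stage comparison was made in a single fit of the 10 inflorescence libraries on log2(RPM + 1), in which 137 loci, 29 of them from this range, reached 1 RPM in at least 2 libraries. A difference on that scale understates the change of a low locus. According to the deposited table, days 0 and 2 come from 1 sequencing run, days 4 and 8 from another and seedlings from yet another, so a difference across runs and a difference between stages cannot be told apart. Only day 2 against day 0 and day 8 against day 4 lie within a run.

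Day 2 against day 0 gave 0 calls among the 29 loci, beside 0% of all 137 loci. At an unadjusted p under 0.05, 1 of the 29 and 11 of the 137 passed. That locus was MIR861, with 0.800 and 0 RPM on day 0 and 1.40, 3.67 and 3.53 RPM on day 2 (log2 difference 1.46, SE 0.47, limma adjusted p = 0.51). The median log2 difference was 0.13 over the 29 loci and -0.01 over all 137.

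Day 8 against day 4 gave 1 call among the 29 loci, MIR844, beside 14.6% of all loci (11.7% higher, 2.92% lower). MIR844 lies at chr2:9942151-9942335 on the minus strand in an intron of AT2G23348. It had 4.32 and 10.6 RPM on day 4 and 18.1, 23.7 and 24.1 RPM on day 8. All day 8 libraries were above both day 4 libraries, and also above those of day 0 (5.60 and 13.1 RPM) and day 2 (6.07, 8.82 and 7.76 RPM). The log2 difference was 1.54 (SE 0.39, limma adjusted p = 0.0067), and the pooled reads, 93 on day 8 against 22 on day 4, gave a ratio of 2.66 (95% exact interval 1.66 to 4.46, counting error only). The call rested on the lower day 4 library, since without day 4 replicate 1 the difference was 0.98 (limma adjusted p = 0.18). It was also lost in the quantile-normalized values (adjusted p = 0.12) and in a fit with seedlings included (adjusted p = 0.44).

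Day 4 against day 2 gave 1 call among the 29 loci, beside 12.4% of all loci (5.11% higher, 7.30% lower), and it was by far the largest stage difference of the range. MIR781b had 27.2 and 28.8 RPM on day 0 and 25.7, 23.5 and 31.7 RPM on day 2. It had 1.08 and 1.17 RPM on day 4 and 2.58, 2.79 and 0 RPM on day 8. No library of the later days came near the earlier ones. Day 4 was lower than day 2 by a log2 difference of -3.71 (SE 0.46, limma adjusted p = 1.1e-06) and day 8 lower than day 2 by -3.54 (SE 0.41, adjusted p = 3.5e-07). The pooled reads were 3 on day 4 against 132 on day 2, a ratio of 0.0425 (95% exact interval 0.00866 to 0.127). The call held under all 18 alternatives for each of these comparisons. The fall lies exactly between the sequencing runs, so run and stage cannot be told apart for it. Within runs, day 2 against day 0 (-0.06, SE 0.46) and day 8 against day 4 (0.17, SE 0.46) did not pass.

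The position of MIR781b bears on what its value counts. MIR781b (chr1:7423521-7423607, minus strand) and MIR781a (chr1:7423518-7423611, plus strand) are annotated on the opposite strands of the same stretch, within an intron of AT1G21200, and their mature sequences are identical. That sequence is found at 2 places in the genome, so a read of exactly these bases is in neither count. Of longer reads, only those with the next base after the last one were examined. With that base a read fits 1 place, a final U at MIR781a and a final A at MIR781b, shown here in capitals.
miR781a with the next base: uuagaguuuucuggauacuuaU
miR781b with the next base: uuagaguuuucuggauacuuaA
The values of MIR781b thus count longer reads or other parts of the precursor, and whether the mature miRNA itself fell was not measured. MIR781a was at 0 to 1.88 RPM in the 10 inflorescence libraries and at 0 in seedlings. The sources used here do not state whether strand was used in counting. In the annotation used here MIR781b lies wholly inside MIR781a. A count without strand could then not give MIR781b more reads than MIR781a. On day 0 MIR781b had 80 reads and MIR781a 3, so with these coordinates the deposited values keep the strands of this pair apart.

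Day 8 against day 2 gave 4 calls among the 29 loci (3 higher, 1 lower), beside 36.5% of all loci (23.4% higher, 13.1% lower), and day 8 against day 0 gave 5 (4 higher, 1 lower), beside 28.5% (18.2% higher, 10.2% lower). These comparisons cross the runs and share the day 8 libraries. MIR781b was the lower locus in both, and MIR844 and MIR865 were higher in both. MIR848 was higher than on day 2, and MIR861 and MIR825 were higher than on day 0. The median log2 difference was 0.21 over the 29 loci and 0.20 over all 137 for day 8 against day 2, and 0.17 and 0.17 for day 8 against day 0. Median-ratio scaling moved the median over all loci to -0.03 and -0.05. With that scaling 5 loci were called against day 2 (3 higher, 2 lower, MIR775 added), and 2 against day 0 (MIR861 higher and MIR781b lower), so that MIR825, MIR844 and MIR865 were no longer called against day 0.

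MIR865 lies at chr5:5169990-5170131 on the plus strand outside protein-coding genes, and its miR865-3p has the seed of miR472-3p. It had 6.40 and 9.38 RPM on day 0, 3.27, 9.55 and 10.6 RPM on day 2, 14.0 and 12.3 RPM on day 4 and 21.5, 20.2 and 17.1 RPM on day 8. Every day 8 library lay above every library of the earlier days, and day 4 lay above days 0 and 2. Day 8 was higher than day 2 by 1.35 (SE 0.35, limma adjusted p = 0.0033), which held under all 18 alternatives. Against day 0 the difference was 1.23 (SE 0.39, adjusted p = 0.018). That call was lost without day 0 replicate 1 (adjusted p = 0.2), day 8 replicate 1 (0.064) or day 8 replicate 2 (0.07), and also in the quantile-normalized values (0.094), without the intensity trend (0.053) and with seedlings in the fit (0.1).

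**Figure D3:**
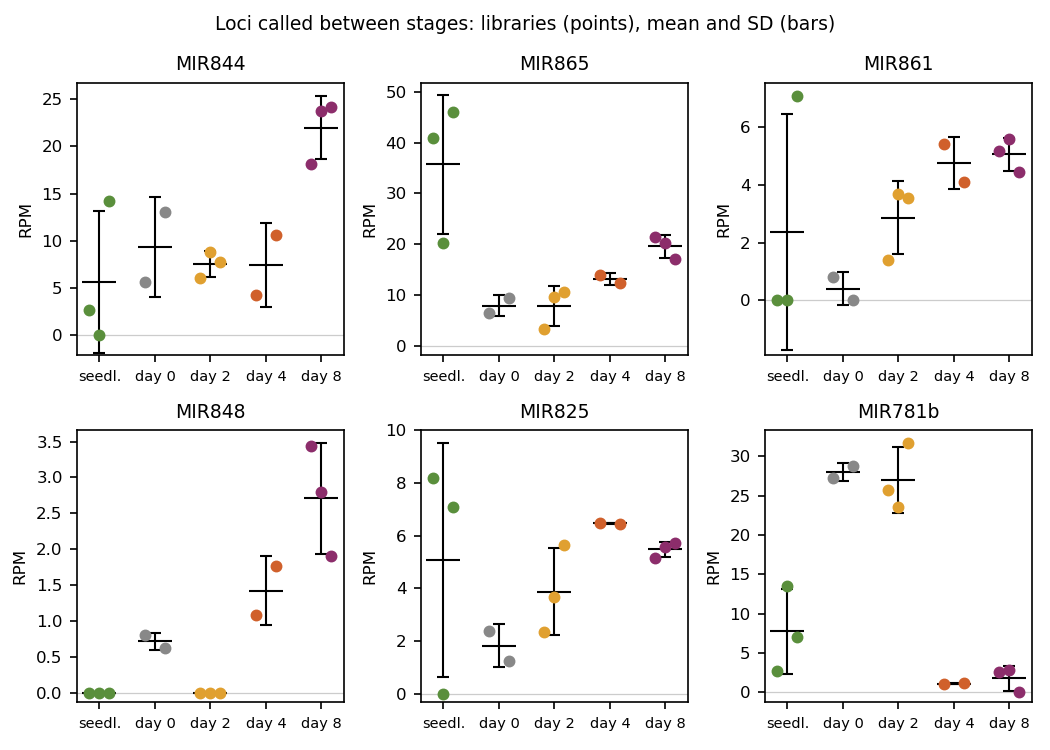
RPM of the 6 loci called between inflorescence stages, by group, with 1 point per library, a bar at the mean and error bars of 1 SD. MIR844 and MIR865 are highest among inflorescences on day 8, MIR861, MIR848 and MIR825 stay under 10 RPM throughout, and MIR781b drops from 23.5 to 31.7 RPM on days 0 and 2 to at most 2.79 RPM on days 4 and 8.

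MIR844 was higher on day 8 than on day 2 by 1.43 (SE 0.35, limma adjusted p = 0.0022) and than on day 0 by 1.24 (SE 0.39, adjusted p = 0.018). The first call was lost in the fit with seedlings (adjusted p = 0.22). The other one rested on day 0 replicate 1, without which the difference was 0.69 (adjusted p = 0.36), and was also lost without day 8 replicate 2 (0.078) or replicate 3 (0.064), in the quantile-normalized values (0.13), without the intensity trend (0.053) and with seedlings in the fit (0.41).

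The remaining risers were loci of few reads. MIR861 (chr3:17838135-17838266, minus strand) had 0.800 and 0 RPM on day 0, 5.40 and 4.11 RPM on day 4 and 5.17, 5.58 and 4.44 RPM on day 8. The day 0 value is 1 read, and the ratio of day 8 to day 0 from 21 reads against 1 was 14.3 (95% exact interval 2.31 to 593). The log2 difference was 2.17 (SE 0.47, limma adjusted p = 0.0012), and it was lost with seedlings in the fit (adjusted p = 0.074). MIR848 (chr5:4479397-4479591, minus strand), in an intron of AT5G13890, had 0.800 and 0.625 RPM on day 0, 0 in the 3 day 2 libraries, 1.08 and 1.76 RPM on day 4 and 3.44, 2.79 and 1.90 RPM on day 8. The day 8 mean was 4.45 times the RPM that 3 reads make over the day 2 libraries. The counting error of the 11 day 8 reads is not in this value. Day 8 was called higher than day 2 (limma adjusted p = 0.00063), and these groups did not overlap. Against day 0, with 2 reads, it was not called (adjusted p = 0.068). MIR848 reached the minimum of 1 RPM on days 4 and 8 alone, so its call against day 2 is not independent of that filter.

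MIR825 is in the list of loci given immune receptor targets, and lies at chr2:11159660-11159845 on the plus strand. Whether its 1 annotated mature sequence, shown above, has such targets was not tested. MIR825 had 2.40 and 1.25 RPM on day 0, 2.33, 3.67 and 5.64 RPM on day 2, 6.48 and 6.46 RPM on day 4 and 5.17, 5.58 and 5.71 RPM on day 8. Day 8 was higher than day 0 by 1.23 (SE 0.43, limma adjusted p = 0.034) without overlap. The call was lost when any 1 of the 5 libraries was left out (adjusted p = 0.053 to 0.24) and held under 7 of 17 alternatives.

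Across the 4 stages together, 5 of the 29 loci passed the F test with a range of over 2-fold between stages, beside 27.0% of all loci. These were MIR781b, MIR844, MIR848, MIR861 and MIR865 (limma adjusted p from 4.6e-08 to 0.011). Leaving out day 8 replicate 2 left 3 calls, losing MIR844 (adjusted p = 0.061) and MIR865 (0.077). MIR865 was also lost without day 8 replicate 1 (0.065) and MIR861 without day 0 replicate 2 (0.088). In the quantile-normalized values MIR844 (limma adjusted p = 0.083) and MIR865 (0.084) were lost, and MIR773a and MIR779 were called instead. With seedlings in the fit MIR844 (0.47), MIR861 (0.21) and MIR865 (0.12) were lost, and without the intensity trend MIR865 (0.056) was. With a pseudocount of 5, MIR848, MIR861 and MIR865 passed the F test and stayed under the 2-fold range. Split by group, the F test called 5 of 29 tested loci of this range, 6 of 46 of those numbered 1000 and above and 26 of 62 of the rest. These counts are descriptions, and the groups differ in level, so no difference between them was tested.

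Seedlings were set against day 0, the uninduced inflorescences, and against day 8 in a fit of all 13 libraries, in which 153 loci, 35 of them from this range, reached 1 RPM in at least 2 libraries. A single read makes 2.73 to 6.73 RPM in seedling libraries and 0.467 to 1.08 RPM in inflorescence libraries, so this minimum is under 1 read in seedlings. Loci at 0 in seedlings passed it through inflorescences alone, so their calls are not independent of it. Day 0 against seedlings gave 11 calls (8 higher, 3 lower) among the 35 loci, beside 45.8% of all loci (30.1% higher, 15.7% lower). Day 8 against seedlings gave 13 calls (10 higher, 3 lower), beside 49.7% (34.6% higher, 15.0% lower). The median log2 difference was 0.42 and 0.39 over the 35 loci, and 0.59 and 0.55 over all 153, or 0.46 and 0.42 over all 153 after median-ratio scaling. These comparisons share the seedling libraries, and seedlings differ from inflorescences in tissue, run and depth, which cannot be told apart.

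The loci called higher in inflorescences included MIR823 and MIR773a, with targets among DNA methylation genes, and MIR472, with targets among immune receptor genes. miR823 targets the DNA methyltransferase gene *CMT3*. MIR823 (chr3:4496775-4496965, minus strand) had 2.73, 0 and 0 RPM in seedlings and 13.6 and 13.1 RPM on day 0, and stayed between 9.17 and 15.1 RPM over the 10 inflorescence libraries. No seedling library reached an inflorescence library. The log2 difference was 3.21 on day 0 (SE 0.53, limma adjusted p = 0.00028), and the ratio of pooled reads, 38 against 1, was 10.6 (95% exact interval 1.80 to 431). It held under all 21 alternatives, and among inflorescence stages MIR823 passed no comparison.

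miR773a targets the methyltransferase gene *MET2*. MIR773a (chr1:13067251-13067335, plus strand) had 5.45, 6.73 and 0 RPM in seedlings against 19.2 and 23.8 RPM on day 0 and 13.8, 21.6 and 26.6 RPM on day 8. The groups did not overlap. The log2 difference was 2.60 on day 0 (SE 0.68, limma adjusted p = 0.0072) and 2.51 on day 8 (SE 0.61, adjusted p = 0.0036), and the ratio of day 0 to seedlings, 62 reads against 3, was 5.78 (95% exact interval 1.89 to 28.8). The day 0 call was lost without day 0 replicate 2 (adjusted p = 0.056) and with the libraries of these 2 groups alone (0.12). Its relative MIR773b, with 0, 6.73 and 7.09 RPM in seedlings and 4.00 and 8.76 RPM on day 0, was not called (log2 difference 0.82, SE 0.74, adjusted p = 0.39). Whether MIR773a and MIR773b differ in this was not tested.

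miR472 targets mRNAs of CC-NBS-LRR immune receptors, and its locus (chr1:4182132-4182299, minus strand) is annotated in a UTR exon of AT1G12290, itself a gene of that class, on the same strand. MIR472 had 5.45, 0 and 0 RPM in seedlings, 13.4 ± 4.80 RPM on day 0 (SD, n = 2, from 21 and 16 reads) and 18.9, 21.6 and 22.8 RPM on day 8. All inflorescence libraries were above all seedling libraries. The log2 difference was 2.91 on day 0 (SE 0.67, limma adjusted p = 0.0034) and 3.57 on day 8 (SE 0.60, adjusted p = 0.0002), with 37 reads against 2 on day 0 (ratio 5.18, 95% exact interval 1.34 to 44.3). The day 0 call was lost with the libraries of these 2 groups alone (adjusted p = 0.087). Between inflorescence stages MIR472 passed no comparison (day 8 against day 0, 0.66, SE 0.32, adjusted p = 0.14).

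MIR779 (chr2:9560761-9560923, plus strand) was measured with more reads in seedlings than the preceding loci and had 10.9, 13.5 and 10.6 RPM there. Day 0 was higher by 1.19 (SE 0.32, limma adjusted p = 0.008) and day 8 by 1.80 (SE 0.28, adjusted p = 0.00015), with no overlap. The day 0 call was lost with median-ratio scaling (0.82, adjusted p = 0.059). MIR775, with 92.7, 40.4 and 117 RPM in seedlings, was not called against day 0 (0.63, SE 0.36, adjusted p = 0.18) or day 8 (0.63, SE 0.32, adjusted p = 0.13).

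MIR860 (chr5:9098791-9098916, plus strand), in a UTR exon of the ferrochelatase gene *FC1* on the same strand, was at 0 in the 3 seedling libraries and had 4.00 and 3.13 RPM on day 0 and 7.75, 11.9 and 5.71 RPM on day 8. The day 8 mean was 2.24 times the limit of 3.76 RPM that 3 reads make over the seedling libraries (limma adjusted p = 7.1e-05). The counting error of the 35 day 8 reads is not in this value. The day 0 mean of 3.56 RPM lay under that limit although the fit called it (adjusted p = 0.0038, and 0.056 with a pseudocount of 5). MIR406, MIR830, MIR841b and MIR848 were likewise at 0 in seedlings, with group means of 0.713 to 2.71 RPM on days 0 and 8. MIR830 and MIR841b were called on both days, and MIR406 and MIR848 on day 8. Both sides of each of these comparisons are under the seedling limit, so no fold is given, and these calls of the fit rest on differences smaller than what 0 reads in seedlings allow. The day 0 call of MIR830 was lost without any 1 of the 5 libraries compared (limma adjusted p = 0.053 to 0.14), that of MIR841b without day 0 replicate 1 (0.08) or replicate 2 (0.097), and the day 8 call of MIR406 without seedlings replicate 2 (0.051) or day 8 replicate 3 (0.12). MIR844 was called on day 8 alone (2.57, SE 0.74, adjusted p = 0.011, and 0.063 with these groups alone), against 2.73, 0 and 14.2 RPM in seedlings.

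Fewer loci were lower in inflorescences. MIR865 was the best measured of them, with 40.9, 20.2 and 46.1 RPM in seedlings from 31 reads, against 6.40 and 9.38 RPM on day 0. The groups did not overlap, the log2 difference was -1.99 (SE 0.48, limma adjusted p = 0.0043), and the ratio of pooled reads was 0.208 (95% exact interval 0.116 to 0.368). The day 8 libraries, at 17.1 to 21.5 RPM, overlapped the lowest seedling library, and day 8 against seedlings was not called (-0.76, SE 0.43, adjusted p = 0.16). It was called lower there with median-ratio scaling. MIR865 was thus high in seedlings, low on days 0 and 2 and intermediate on day 8.

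MIR829 (chr1:11834022-11834226, minus strand) had 5.45, 13.5 and 7.09 RPM in seedlings, 2 reads in each library, and 0 in both day 0 libraries. Over the 10 inflorescence libraries it had 4 reads, at most 1.08 RPM in any. The seedling mean was 8.23 times the RPM that 3 reads make over the day 0 libraries. The counting error of the 6 seedling reads is not in this value. Day 0 was called lower than seedlings (limma adjusted p = 5.4e-05), and the day 0 and day 8 calls held under all 20 alternatives. MIR869 (chr5:15891579-15891873, minus strand) had 1 read in each seedling library (2.73, 6.73 and 3.55 RPM) and 3 reads in all inflorescence libraries. It was called lower on day 0 (-1.99, SE 0.42, adjusted p = 0.0018) and day 8 (-1.79, SE 0.37, adjusted p = 0.0011). The interval of its read ratio on day 0, 0.00178 to 1.16, reaches past 1, so these reads alone do not separate the groups. MIR829 and MIR869 reached the minimum of 1 RPM in 2 libraries only because of seedlings, the group where they were high. Their calls are thus not independent of that filter.

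MIR781b had 2.73, 13.5 and 7.09 RPM in seedlings, between its levels of days 0 and 2 and those of days 4 and 8. It was called higher on day 0 (1.93, SE 0.62, limma adjusted p = 0.023) and lower on day 8 (-1.67, SE 0.56, adjusted p = 0.023). Seedlings did not overlap day 0, and on day 8 the libraries overlapped. The day 0 call was lost without seedlings replicate 1 (adjusted p = 0.079), day 0 replicate 1 (0.094) or day 0 replicate 2 (0.1). The day 8 call was lost without seedlings replicate 2 (0.077) or day 8 replicate 3 (0.12). Both were lost in fits of the compared groups alone (0.077 and 0.12).

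**Figure D4:**
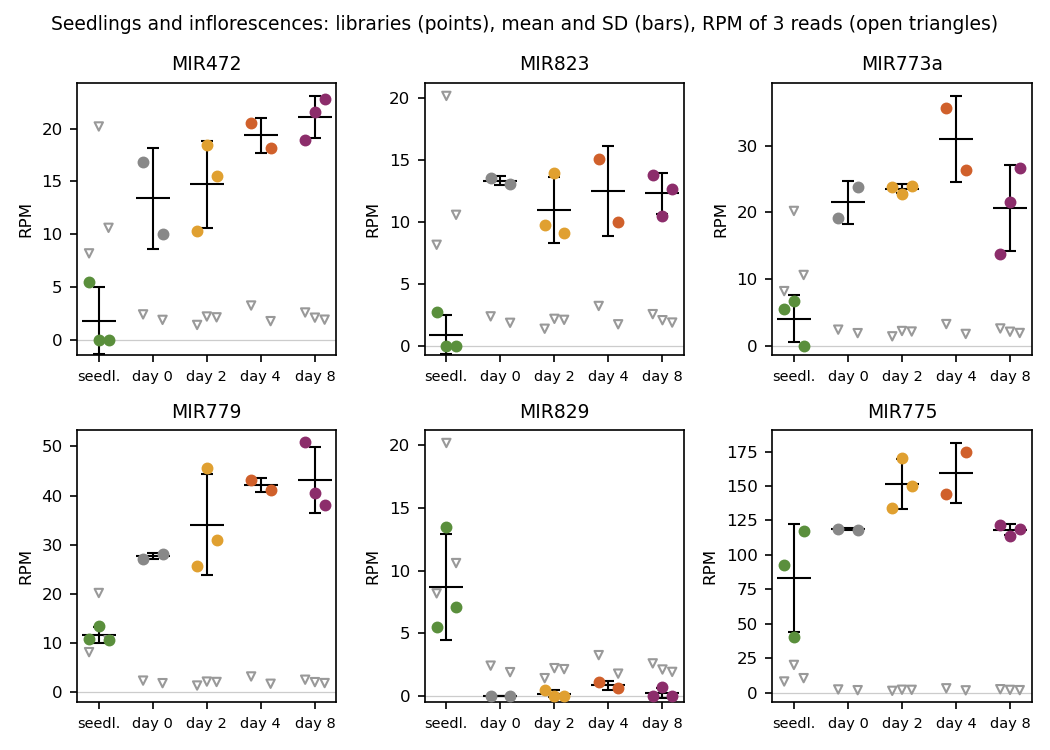
RPM of 6 loci in seedlings and in inflorescences of days 0 to 8, with 1 point per library, a bar at the mean, error bars of 1 SD and an open triangle at the RPM that 3 reads make in that library. MIR472, MIR823, MIR773a and MIR779 have higher points in every inflorescence library than in seedlings, MIR829 the reverse, and outside MIR775 most seedling points lie below or near the triangles.

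In any of the 8 comparisons, 16 of the 35 tested loci of the range were called, beside 66.7% of the 153 loci tested, and the counts by role are given against that share as descriptions. The 5 loci with targets among DNA and histone methylation genes summed to 37.0 to 60.5 RPM in inflorescence libraries and 7.09 to 13.5 RPM in seedlings. 3 of them were tested and 2 called in any comparison (MIR773a and MIR823, both against seedlings). MIR778, which targets histone methyltransferase genes, was detected in 1 library. Of the immune receptor list, MIR472 was called against seedlings and MIR825 on day 8 against day 0. MIR825 had 8.18, 0 and 7.09 RPM in seedlings and was called against them neither on day 0 (-0.60, SE 0.76, limma adjusted p = 0.54) nor on day 8 (0.62, SE 0.68, adjusted p = 0.5). The lectin, C1-domain and glycosyltransferase list (MIR775, MIR822, MIR842 and MIR846) had 3 tested loci and 0 calls.

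Within that last list, MIR822 (chr5:897020-897356, minus strand), which targets mRNAs of C1-domain proteins, had 2.73, 6.73 and 10.6 RPM in seedlings, 1.60 and 1.25 RPM on day 0, 0.933, 0 and 1.41 RPM on day 2 and 3.24 and 4.70 RPM on day 4. Day 4 lay above day 2 without overlap and did not pass the test (log2 difference 1.56, SE 0.57, limma adjusted p = 0.069). On day 8 it had 6.89, 2.09 and 0.634 RPM, a spread wider than that of any earlier inflorescence stage. MIR842, which targets jacalin lectin mRNAs, was above 0 in 6 libraries, at most 2.94 RPM.

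The glucosinolate locus MIR826a, which targets *AOP2*, had 7.09 RPM in seedlings replicate 3 and 2.09 and 1.27 RPM in day 8 replicates 2 and 3, and was at 0 in the other libraries. Its opposite-strand neighbour MIR826b had 1 read in seedlings replicate 3 and 1 in day 4 replicate 1. MIR847, which targets the auxin signalling gene *IAA28*, was above 0 in 4 libraries, at most 2.73 RPM. MIR838, which lies in an intron of *DCL1*, was above 0 in 9 libraries, at most 2.35 RPM in inflorescences, with 1 read in seedlings. None of these loci was called.

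The loci related to repeats and transposons (MIR405, MIR845, MIR854 and MIR855) had few reads in the counts, and all but MIR845a and MIR845b are among the loci whose mature sequence fits several places. 4 of 11 were above 0 in any library, their sum was at most 1.41 RPM in any inflorescence library, and all were at 0 in seedlings. MIR405b, with 1 read in each of 2 libraries, was the only one of them seen more than in a single library. Of the 3 MIR447 loci, 2 had 1 read each, and the sequences of MIR447a and MIR447b fit several places. Of the 51 loci given no role, 32 were detected and 22 tested. In at least 1 comparison 12 were called, beside 66.7% of all 153 loci tested, among them MIR844, MIR865 and MIR781b.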

How the data were processed

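Per the methods, the authors used Trim Galore for trimming and STAR for mapping to TAIR10 and for counting per miRBase gene. They deposited these counts scaled by the mapped reads of each library (RPM). For the miRNA-seq reads, no tool version was given in the sources used here. Of the labels, that of day 2 replicate 1 gives time 0 beside a day 2 title and DEX, so its title was followed. The paper states 3 biological replicates per sample, and the labels list 2 for days 0 and 4. 3 more library columns match no sample and were left out. The sequencing runs come from a column of the deposited table that names a run only where a block of libraries starts, and the rest of the block was given the same run. p-values reflect the spread among libraries alone, which may be partly technical. Members, role lists and tests were chosen with earlier results of these data known.

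limma 3.58.1 (R 4.3.3) was run on log2(RPM + 1) with an intensity trend, for loci of at least 1 RPM in at least 2 libraries, with Benjamini-Hochberg adjustment over all loci tested and a threshold of 0.05. RPM values were whole multiples of a step (tolerance 0.1), taken as 1 read, which gave reads and depth. In several libraries few low values were there to set the step, so the reads are estimates and no count model was used. Ratios of pooled reads carry exact 95% intervals, and intervals and limits cover counting error only. Named loci are those called in any comparison, the 12 highest in inflorescences, the 5 highest in seedlings and the role-list loci above 0 in at least 2 libraries. Loci outside this rule that are named (MIR781a, MIR778 and undetected loci) were chosen after their values were seen. Coordinates and sequences are of TAIR10.1 (RefSeq). Python 3.11.15, pandas 2.3.3, numpy 2.4.6 and matplotlib 3.10.9 were used, and the test was tried on simulated data. Alternatives were a pseudocount of 5, no minimum, minimums of 10 and 20 RPM, median-ratio scaling, the deposited quantile-normalized RPM, no trend, a replicate block, other library sets and each library left out.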

Additional observations from a re-analysis of the deposited data

How the results depend on the processing

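The 40 calls of a locus in a comparison were recomputed under the alternatives, which gave 784 values in all. Of these values, 710 kept the call, 74 lost it and 0 turned direction. 18 of the 40 calls held under every alternative that tested them. Some alternatives left out a library of neither compared group, which can change the spread and not the difference, so the kept calls are partly given by design. Number of loci of the range called: day 4 against day 2, 1, became 2 with median-ratio scaling, 4 with quantile-normalized values, 2 without the trend and 2 in the fit of all 13 libraries (1 to 3 with a library left out). Day 8 against day 4, 1, became 2 with median-ratio scaling and 0 with all 13 libraries (0 to 2). Day 8 against day 0, 5, became 2 with median-ratio scaling and 2 with all 13 libraries (2 to 5). Across the stages, 5 became 2 with a pseudocount of 5, 3 with a minimum of 10 RPM and 2 with all 13 libraries (3 to 6). Day 0 against seedlings, 11, became 6 at a minimum of 10 RPM and 5 at 20 RPM (7 to 14), and day 8 against seedlings, 13, became 6 and 5 (11 to 19). These minimums test only 10 and 7 loci of the range. Otherwise the cause was not tested. Day 8 against day 2, 4, ranged from 3 (a minimum of 10 RPM, all 13 libraries) to 5, and day 2 against day 0 stayed at 0. An unchanged count did not always mean the same loci. With quantile-normalized values, day 8 against day 4 stayed at 1, with MIR773a lower in place of MIR844 higher. Day 8 against day 0 stayed at 5, with MIR775, MIR779 and MIR848 in place of MIR825, MIR844 and MIR865. Across the stages the count stayed at 5, with MIR773a and MIR779 in place of MIR844 and MIR865. Counting a locus as detected only from 10 RPM, the mean number per library was 7.50 in inflorescences and 5.67 in seedlings, in place of 28.5 and 15.3. Set against the RPM of all miRNA loci, the summed level was 1.15% in inflorescences and 1.16% in seedlings. Replicate numbers gave no clear sign of paired libraries (2 of 13 same-numbered pairs correlated over 0.1, range -0.167 to 0.146). Pairs of different numbers reached 0.167. These are correlations of deviations from the group means, which mirror each other in a group of 2 libraries. They therefore cannot show that pairing was absent. With the replicate block the counts of calls were 0 for day 2 against day 0, 1 for day 4 against day 2, 1 for day 8 against day 4, 5 for day 8 against day 2, 4 for day 8 against day 0, 5 across the stages, 10 for day 0 against seedlings and 13 for day 8 against seedlings. Depth limits the seedlings most, where 3 reads in the pooled libraries make 3.76 RPM.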
